A study of Mus musculus with 9 samples.

Results

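Integrins of brain vessels are described here through 10 subunit genes, Itga1, Itga4, Itga5, Itga6, Itga9, Itgav, Itgb1, Itgb3, Itgb5 and Itgb8, of 18194 mouse genes that at least 1 probe set of the array named alone. The members were given as a list, and the brightest probe set of each gene on average (9 arrays) was used, the others serving as a check. RNA came from 3 groups of 3 mouse brain samples, labelled as biological replicates, with 1 array each. Microvascular fragments and the brain tissue left without them (rest of brain) were from NMRI embryos at embryonic day 18.5, and a further set of fragments was from mice of a mixed C57/SV129 background aged 1 year, 2 males and 1 female. No group carried a genetic change or a treatment according to the labels. Neither embryo sex nor the isolation of the fragments is stated in the sources used here. Age, strain and the RNA extraction kit (a micro kit for embryonic and a mini kit for adult tissue) changed together between the fragment groups and cannot be told apart. The labels do not say whether embryos were pooled.

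Integrins are receptors for the extracellular matrix and for proteins on other cells. Each is a heterodimer of an alpha and a beta subunit, and the pairing sets which ligand is bound. Itgb1 pairs with many alpha subunits, whereas Itgb3, Itgb5 and Itgb8 pair with Itgav among the members. In brain, endothelial cells and pericytes sit on a shared basement membrane of laminins and collagen IV, and integrins of the vessel wall and of the surrounding glia attach to it from both sides. Itgav paired with Itgb8 on neural cells is known to release active TGF-beta next to embryonic brain vessels.

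Levels are on the log2 scale of GCRMA, which corrects short-oligonucleotide arrays for background and normalizes them, and a level under 4 was taken as background. Array medians lay at 3.58 to 3.67. Of the 10 markers of endothelium, all were higher in embryonic fragments than in rest of brain. Their mean level was 12.6 to 12.9 on the embryonic fragment arrays, 12.5 to 12.9 on the adult ones and 4.81 to 5.19 in rest of brain, where Pecam1, Tie1 and Emcn lay under 4 on every array. The mean level of 10 neuronal markers was 12.4 to 12.6 in rest of brain, 6.56 to 7.73 in embryonic fragments and 4.05 to 4.43 in adult fragments. Embryonic fragments replicate 1 stood apart in its microglia and macrophage markers, with a mean of 10.7 over 12 genes against 12.6 and 12.7 on the other arrays of its group. Values without this array are given beside Itga9, Itgb3, Itgb5, Itgb8, Itga8, Itgam and Itgb2, which were lowest on it within their group. Itga6 and Itgav were lowest on it as well. In bulk samples of this kind, fewer cells of a type and less RNA per cell cannot be told apart.

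Most of the vascular subunits were more abundant in embryonic fragments than in the remaining brain, and Itgb8 was the reverse. In adult fragments, Itga4, Itga9 and Itgb1 were lower and Itga6, Itgb3, Itgb5 and Itgb8 higher than in embryonic fragments. Below, "with age" and "between the ages" name this comparison only, in which strain and RNA kit changed as well. Of the 10 members, 9 could be tested, and Itga5 lay at background on every array. A gene was called at a limma adjusted p under 0.05, with adjustment over all 12009 tested genes. Between embryonic fragments and rest of brain 6 members were called higher and 1 lower, 7 of 9 in all, where 66.1% of all tested genes were called (28.9% higher and 37.2% lower). Their median log2 difference was 2.21, against -0.10 over all tested genes. Between adult and embryonic fragments 4 were higher and 3 lower, where 57.1% of all genes were called (27.4% higher and 29.7% lower), and the median was 0.25 against -0.02. Between adult fragments and embryonic rest of brain 7 were higher and none was lower by limma, 2 being uncalled (Itga9 and Itgb8; 0 members were lower at an unadjusted p under 0.05 as well), where 76.0% of all genes were called (33.1% higher and 42.9% lower). Members tested had to reach 4 on at least 3 arrays, so these counts describe the members and say nothing about integrins as a class.

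**Figure D1:**
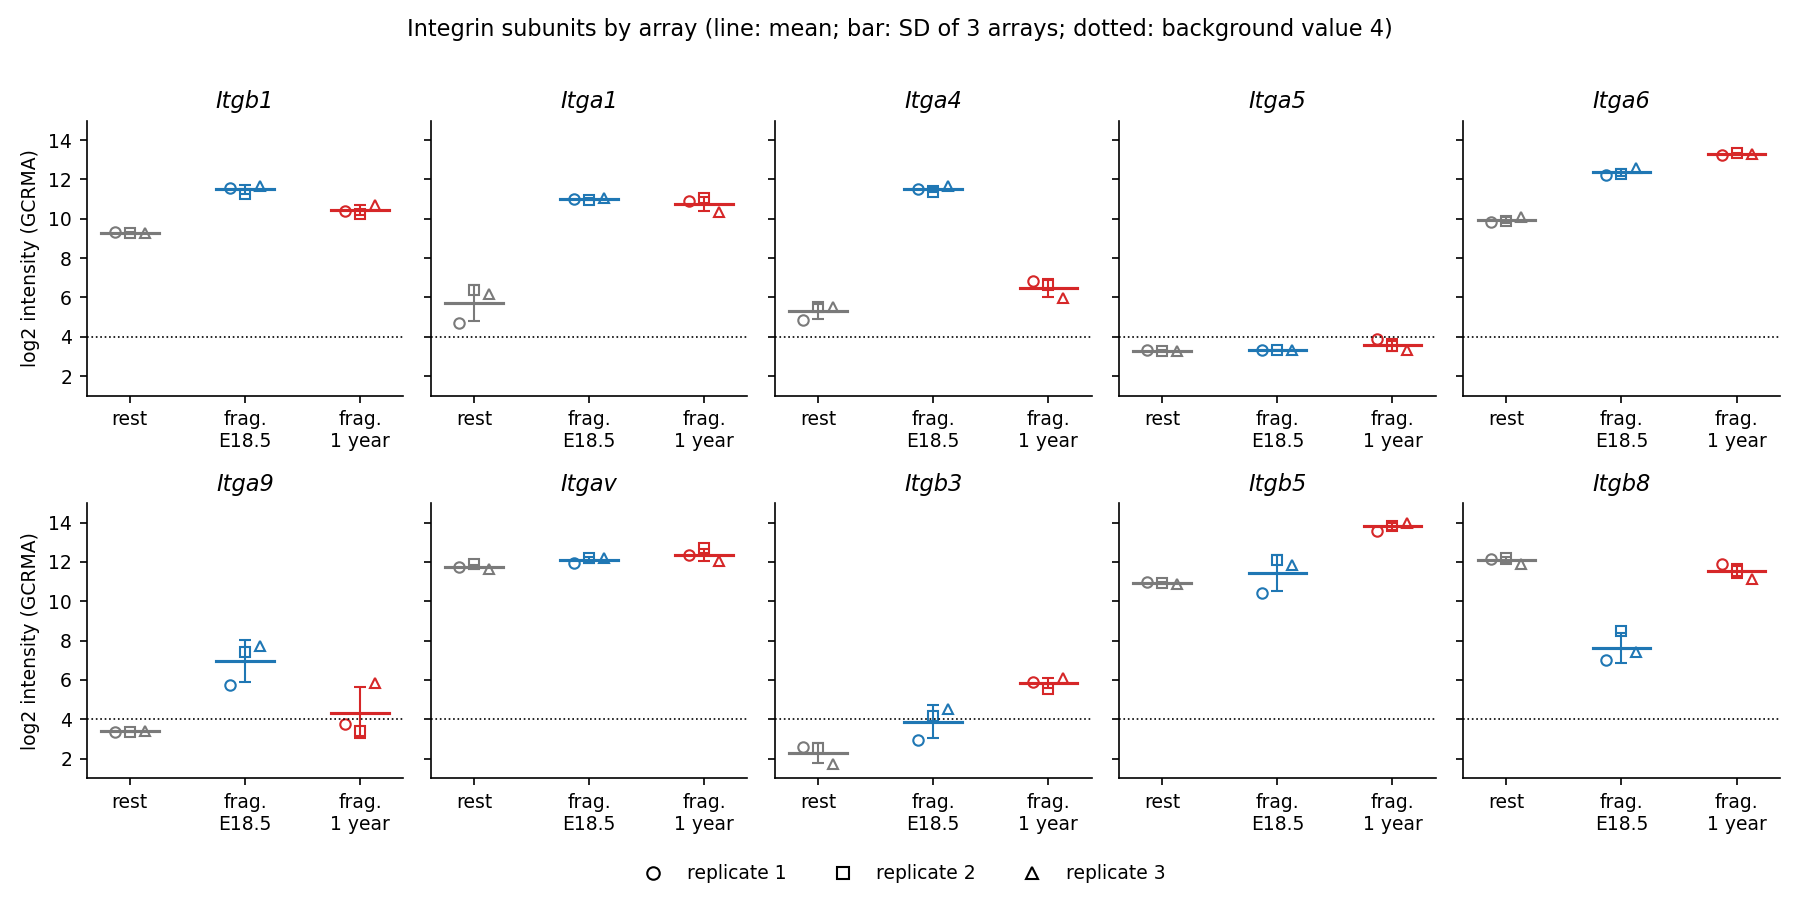
Log2 intensity of each of the 10 subunits on the 9 arrays, with the mean (line) and SD (bar) of the 3 arrays of a group and the background value of 4 (dotted); symbols mark the replicate number. Itga4 stands at 11.38 to 11.66 in embryonic fragments and at no more than 6.85 on the other arrays, Itgb8 is lowest in embryonic fragments, and Itga5 is under 4 throughout.

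Itgb1, the beta subunit shared by most matrix receptors of the vessel wall, measured 11.54, 11.26 and 11.67 in embryonic fragments, 9.33, 9.27 and 9.25 in rest of brain, and 10.39, 10.25 and 10.73 in adult fragments. The 3 groups did not overlap, with embryonic fragments at the top, adult fragments in the middle and rest of brain at the bottom. Embryonic fragments exceeded rest of brain by 2.21 ± 0.15 (log2 difference ± SE of the fit, 3 against 3 arrays; 4.61-fold, adjusted p = 2.1e-06). Adult fragments fell by 1.03 from embryonic ones (2.05-fold lower, adjusted p = 5.03e-04) and stayed 1.17 ± 0.15 above rest of brain (adjusted p = 1.16e-04).

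The stretches in front of the genes are shown for the members whose pattern was clearest, Itga1, Itga4 and Itgb1, which moved together between embryonic fragments and rest of brain, and Itgb8, which moved the other way. Each is the 250 bases before the start site in RefSeq's annotation of GRCm38.p6, written 5′ to 3′ on the strand of the gene. The table held such a window for 8 of the 10 members, and Itga6 and Itgb3 were not matched. Capitals mark GGAAG, the core of the Ets family site with a flanking base, and the GC box GGGCGG, each searched on both strands.
Itga1, chr13:115101965-115102214, minus strand: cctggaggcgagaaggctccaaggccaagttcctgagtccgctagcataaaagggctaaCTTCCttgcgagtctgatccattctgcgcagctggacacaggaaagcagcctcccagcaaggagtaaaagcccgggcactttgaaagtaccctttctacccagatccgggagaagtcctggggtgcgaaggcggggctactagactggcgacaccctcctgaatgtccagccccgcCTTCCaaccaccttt
Itga4, chr2:79255176-79255425, plus strand: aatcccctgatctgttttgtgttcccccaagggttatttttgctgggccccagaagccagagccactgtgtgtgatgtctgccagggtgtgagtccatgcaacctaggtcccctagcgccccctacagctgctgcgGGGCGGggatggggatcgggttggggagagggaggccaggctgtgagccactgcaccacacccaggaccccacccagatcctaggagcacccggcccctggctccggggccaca
Itgb1, chr8:128685404-128685653, plus strand: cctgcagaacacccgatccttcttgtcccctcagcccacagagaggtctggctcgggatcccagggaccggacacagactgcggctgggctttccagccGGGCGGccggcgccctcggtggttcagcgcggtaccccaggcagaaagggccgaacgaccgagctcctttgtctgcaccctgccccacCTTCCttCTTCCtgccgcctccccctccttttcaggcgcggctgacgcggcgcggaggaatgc
Itgb8, chr12:119238277-119238526, minus strand: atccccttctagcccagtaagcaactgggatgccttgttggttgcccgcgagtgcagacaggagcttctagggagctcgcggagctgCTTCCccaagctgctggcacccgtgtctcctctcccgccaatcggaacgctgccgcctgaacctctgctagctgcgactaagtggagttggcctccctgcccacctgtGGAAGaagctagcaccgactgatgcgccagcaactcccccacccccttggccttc
GGAAG occurred 2 times in front of Itga1, 2 times in front of Itgb1 and 2 times in front of Itgb8, and 0 times in front of Itga4. The GC box occurred 1 time in front of Itga4 and 1 time in front of Itgb1, with 0 overlaps between the marked motifs. Of all 32851 windows of this length in the table, 64.1% held GGAAG and 32.7% the GC box. In all, 12 motifs were searched on both strands, and the marked ones were chosen after the matches had been seen. CACCC, the box of Klf factors, is held by 52.0% of windows and was in 7 of the 8 members' windows, not that of Itga5. The Lef and Tcf piece ACAAAG (16.5% of windows) and the Tead site CATTCC (12.6%) were each in the window of Itgb1 alone, and the C-rich box CCCCTCCC (10.9%) in that of Itgb5 alone. No window of the 8 held the TATA box TATAAA (12.4%), the GATA site GATAAG (6.55%), the longer Ets site CCGGAAG (6.91%), the E-box CACGTG (6.02%), the Sox site ACAATGG (3.02%) or the AP-1 site TGACTCA (4.46%). Motifs nested in one another overlap, as GGAAG lies within the longer Ets site. GGAAG was shared by members that moved in opposite directions and is in most windows, and these matches describe letters, not binding.

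Itga6 encodes the laminin-binding alpha subunit of endothelium. It measured 12.23, 12.29 and 12.57 in embryonic fragments, 9.86, 9.87 and 10.10 in rest of brain, and 13.25, 13.37 and 13.32 in adult fragments. It was the only alpha subunit among the members that was called higher in fragments than in rest of brain and then called higher again with age. The difference was 2.42 ± 0.13 between embryonic fragments and rest of brain (5.34-fold, adjusted p = 2.98e-07) and 0.95 ± 0.13 between adult and embryonic fragments (1.93-fold, adjusted p = 2.47e-04). The SD within adult fragments was 0.06, so that the 3 adult arrays lay well clear of the embryonic ones.

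Itga1, which with Itgb1 binds collagens including collagen IV, measured 11.01, 10.97 and 11.07 in embryonic fragments and 4.68, 6.36 and 6.15 in rest of brain. It was higher in embryonic fragments by 5.28 ± 0.40 (38.9-fold, adjusted p = 3.71e-06). Adult fragments held 10.90, 11.04 and 10.35, overlapping the embryonic ones, with a difference of -0.25 ± 0.40 (95% interval -1.17 to 0.67, adjusted p = 0.637). The other probe set of Itga1 gave a lower adult level, 9.20, 8.88 and 8.45 against 10.20, 10.17 and 10.65, and a called difference of -1.50 ± 0.32 (adjusted p = 0.00392 over all probe sets). The 2 probe sets therefore disagree on whether Itga1 was lower with age, and agree on its excess in embryonic fragments over rest of brain.

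Itga4, Itga5 and Itga9 encode alpha subunits that bind fibronectin or, for Itga4 and Itga9, the adhesion molecule Vcam1 and related ligands. Itga4 showed the largest differences among the members in both comparisons of fragments. It measured 11.52, 11.38 and 11.66 in embryonic fragments, 4.85, 5.50 and 5.51 in rest of brain, and 6.85, 6.65 and 5.99 in adult fragments. Embryonic fragments stood apart from all other arrays, by 6.23 ± 0.25 from rest of brain (75.3-fold, adjusted p = 6.62e-08). Adult fragments fell by 5.03 from embryonic ones (32.6-fold lower, adjusted p = 9.12e-07) and kept an excess of 1.21 ± 0.25 over rest of brain (adjusted p = 0.00218). That last excess was measured by the brightest probe set alone. The next probe set, at 4.98, 5.42 and 3.88 in adult fragments and 4.04, 5.19 and 3.93 in rest of brain, differed by 0.37 ± 0.47 between them, and a further one differed by -0.03 ± 0.19 with both groups under 4. Some markers of other cells, chosen after their values were seen, moved with Itga4 across the groups. Mrc1, a receptor of perivascular macrophages, averaged 14.81 in embryonic fragments, 10.03 in rest of brain and 9.97 in adult fragments, and Pf4, a platelet gene that macrophages can also express, averaged 13.25, 9.54 and 8.73. The mean over all 12 microglia and macrophage markers did not follow Itga4 with age, at 10.7 to 12.7 in embryonic and 11.9 to 12.7 in adult fragments. Of these 12 markers 2 were called higher and 1 lower in adult fragments, where 27.4% and 29.7% of all tested genes were. The part of these cells in the level of Itga4 was not tested.

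Itga9, an alpha subunit that pairs with Itgb1 alone, was present in embryonic fragments at 5.75, 7.42 and 7.74 and at background in rest of brain at 3.37, 3.36 and 3.42. Embryonic fragments were at least 7.84-fold higher, with rest of brain set to the background value of 4 (fitted difference 3.59 ± 0.67, adjusted p = 0.00131). Adult fragments measured 3.78, 3.41 and 5.82. Adult replicate 3 reached the level of the lowest embryonic array while the other adult arrays lay under 4, and the fitted difference of -2.64 ± 0.67 (adjusted p = 0.00926) leans on those values. The microglia and macrophage markers were also lowest on the lowest embryonic array of Itga9 (10.7 on replicate 1) and highest on the highest adult array (12.7 on replicate 3, against 11.9 and 12.1), and their part in the values of Itga9 was not tested. The other testable probe set of Itga9 did not show adult replicate 3 apart, at 4.27, 4.28 and 4.29 in adult fragments, and differed by -1.92 ± 0.25 between the ages and by 0.74 ± 0.25 between adult fragments and rest of brain (adjusted p = 2.45e-04 and 0.0244 over all probe sets). For the brighter one the difference between adult fragments and rest of brain was 0.96 ± 0.67 (95% interval -0.58 to 2.49, adjusted p = 0.224). Without embryonic fragments replicate 1 its difference between embryonic fragments and rest of brain was 4.20 and that between the ages was -3.25, and both were called. Without adult fragments replicate 3 the age difference was -3.38 (adjusted p = 0.00106) and that between adult fragments and rest of brain was 0.21 (adjusted p = 0.727).

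Itga5, the main fibronectin receptor subunit of endothelium, was measured by 4 probe sets. All of them lay under 4 on all 9 arrays, with the brightest at 3.27 to 3.91. No level or difference can be given for Itga5 from these arrays.

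Itgav, the alpha subunit of the receptors for vitronectin and other proteins with the RGD sequence, differed least of the tested members between embryonic fragments and rest of brain. It measured 11.94, 12.19 and 12.18 in embryonic fragments, 11.74, 11.87 and 11.62 in rest of brain, and 12.33, 12.70 and 12.04 in adult fragments. The difference between embryonic fragments and rest of brain was 0.36 ± 0.17 (95% interval -0.04 to 0.75, adjusted p = 0.099), although no array of one group overlapped the other. It passed with the replicate number as a block in the embryonic arrays (adjusted p = 0.0464). Adult and embryonic fragments overlapped and differed by 0.25 ± 0.17 (95% interval -0.14 to 0.65, adjusted p = 0.242). Adult fragments exceeded embryonic rest of brain by 0.61 ± 0.17 (adjusted p = 0.0103). Of 5 probe sets for Itgav, 4 lay under 4 on all arrays, so these values have no check by a second one.

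Of the 4 beta subunits that pair with Itgav here, Itgb3, Itgb5 and Itgb8 were called higher with age and Itgb1 lower, whereas Itgav was not called. Itgb3, known from platelets, osteoclasts and sprouting endothelium, lay at background in rest of brain at 2.61, 2.55 and 1.71. Embryonic fragments held 2.92, 4.18 and 4.50, 1 of these arrays being under 4, so the called difference of 1.57 ± 0.41 (adjusted p = 0.00828) is largely one between background values. With values under 4 set to 4 it was 0.23 and not called (adjusted p = 0.266), and with the replicate block it was not called either (adjusted p = 0.0513). Without embryonic fragments replicate 1 the fitted difference was 2.05 (adjusted p = 4.62e-04). Adult fragments held 5.88, 5.55 and 6.08, above every embryonic array, by 1.97 ± 0.41 over embryonic fragments (adjusted p = 0.0032) and at least 3.58-fold over rest of brain. Without embryonic fragments replicate 1 the age difference was 1.502 (adjusted p = 0.00363). Of the platelet markers, Pf4, which macrophages can also express, was at 8.82, 8.53 and 8.83 in adult fragments. In embryonic ones, where Itgb3 was lower, it was at 12.87, 13.36 and 13.52. Ppbp was at 2.44, 2.38 and 5.79 in adult and at 3.80, 5.77 and 8.45 in embryonic fragments. Within embryonic fragments Itgb3, Pf4 and Ppbp were all lowest on replicate 1 and highest on replicate 3. Itgb3 and Ppbp were also highest on replicate 3 of the adult fragments. Itga2b, the platelet partner of Itgb3, Gp9, Gp5 and Gp6 lay under 4 on all 9 arrays. The part of platelets in the level of Itgb3 was not tested.

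Itgb5, another partner of Itgav and a vitronectin receptor subunit, measured 10.40, 12.09 and 11.87 in embryonic fragments and 10.997, 10.95 and 10.87 in rest of brain. Replicate 1 of embryonic fragments lay below rest of brain and the other arrays of its group above it, so the groups overlapped and the difference was 0.52 ± 0.38 (95% interval -0.36 to 1.39, adjusted p = 0.268). Without that replicate it was 1.04 (adjusted p = 4.58e-04). Adult fragments measured 13.59, 13.84 and 13.99, above all other arrays, and exceeded embryonic fragments by 2.35 ± 0.38 (5.11-fold, adjusted p = 8.37e-04). Without embryonic fragments replicate 1 the excess was 1.83 and remained called. The probe set behind these values is marked as sharing probes with other transcripts. All 4 probe sets of Itgb5 were called higher with age, and the 2 without that mark gave 1.69 ± 0.45 and 1.58 ± 0.45 (adjusted p = 0.0118 and 0.0165 over all probe sets).

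The microglia and macrophage markers moved with Itgb5 within embryonic fragments, with a mean of 10.7 on replicate 1 and 12.6 and 12.7 on the others. Between the ages their mean overlapped (11.9, 12.1 and 12.7 in adult fragments). Of 12 such markers 2 were called higher and 1 lower in adult fragments (2 and 3 without embryonic fragments replicate 1). Of all tested genes 27.4% were called higher and 29.7% lower there. Within the list Tmem119, a gene of microglia, was at 11.18, 11.36 and 12.45 in adult fragments against 6.70, 9.60 and 9.62 in embryonic ones. Mrc1, a receptor of perivascular macrophages, was at 10.20, 10.13 and 9.58 against 14.13, 14.95 and 15.36. No marker of the list lay under 4 throughout a group. The part of these cells in the levels of Itgb5 was not tested.

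Itgb8, the beta subunit of neural cells that with Itgav activates TGF-beta, had the opposite pattern. It measured 6.99, 8.48 and 7.40 in embryonic fragments, 12.17, 12.22 and 11.87 in rest of brain, and 11.91, 11.54 and 11.16 in adult fragments. Embryonic fragments were 22.1-fold lower than rest of brain (-4.47 ± 0.36, adjusted p = 5.24e-06), the only member called lower there. Adult fragments exceeded embryonic ones by 3.91 ± 0.36 (15.1-fold, adjusted p = 2.86e-05) and came near embryonic rest of brain, at -0.55 ± 0.36 (95% interval -1.37 to 0.26, adjusted p = 0.189). Without embryonic fragments replicate 1 the difference between embryonic fragments and rest of brain was -4.15 and that between the ages 3.60, and both were called. A single probe set measured Itgb8.

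The mean of the astrocyte markers had the order of Itgb8, highest in rest of brain and lowest in embryonic fragments. The mean level of 7 such markers was 11.3 to 11.8 in rest of brain, 7.03 to 8.20 in embryonic fragments and 9.55 to 10.1 in adult fragments, and no tested marker lay under 4 throughout a group, while Gfap reached 4 on 2 arrays and was not tested. Between adult and embryonic fragments 5 of the 7 were higher and 2 lower, where 27.4% and 29.7% of all tested genes were. Between adult fragments and rest of brain, where Itgb8 was not called, 1 of the 7 was called higher and 6 lower. Of all tested genes 33.1% and 42.9% were. Embryonic fragments replicate 2 was the highest of its group for Itgb8 (8.48), for the astrocyte markers (8.20) and for 7 markers of neural progenitors (8.69 against 7.45 and 8.08). The progenitor markers went the other way with age, at 4.45 to 5.06 in adult fragments, with Pax6, Eomes, Dlx1 and Neurog2 under 4 on every adult array. The part of astrocytes or their endfeet in the level of Itgb8 was not tested.

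**Figure D2:**
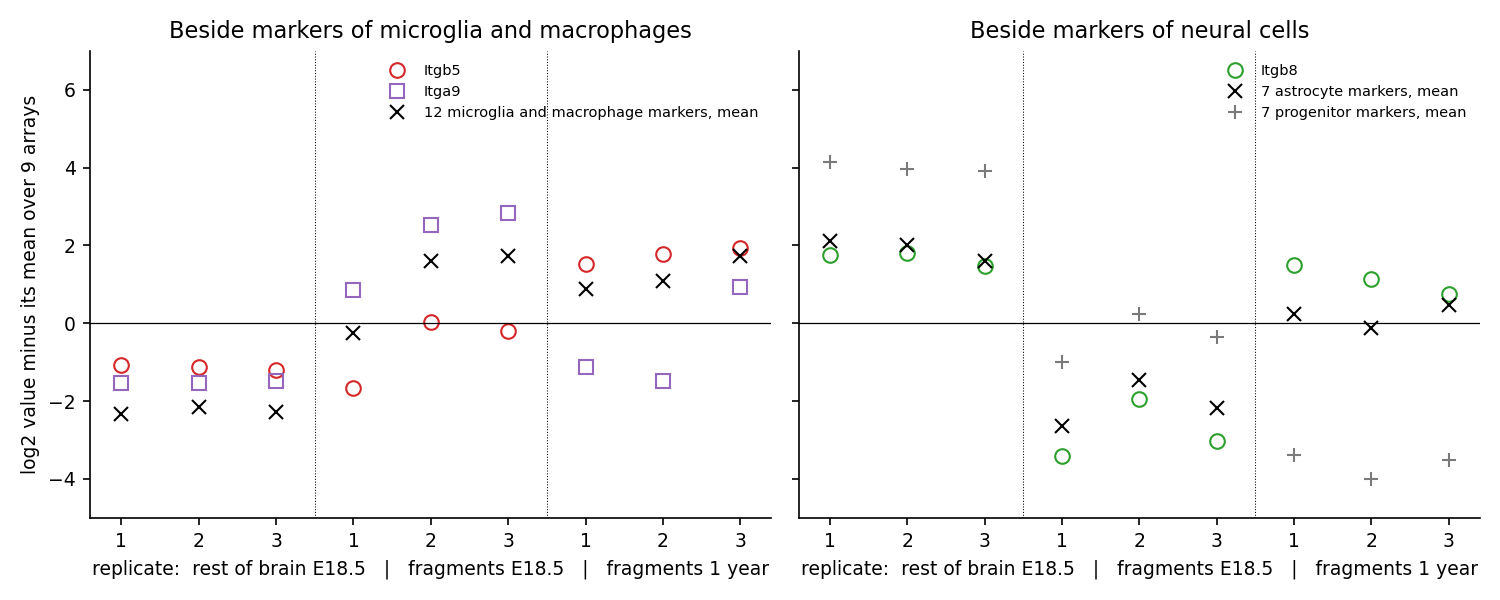
Log2 value of a subunit, or mean over a marker list, minus its own mean of the 9 arrays, by group and replicate number; the left panel sets Itgb5 and Itga9 beside 12 microglia and macrophage markers, the right one Itgb8 beside 7 astrocyte and 7 progenitor markers. Embryonic fragments replicate 1 is the lowest of its group for Itgb5, Itga9 and the microglia and macrophage markers, and Itgb8 is low in embryonic fragments as the astrocyte markers are.

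The other probe sets gave the same direction in both comparisons that involve embryonic fragments. Of 34 probe sets that named a member alone, 19 passed the filter, and 6 of the 9 tested members had more than 1 such probe set, Itgav, Itgb3 and Itgb8 having 1 each. In the fit of all 20636 single-gene probe sets, 63.8%, 55.9% and 73.1% were called in the 3 comparisons. The brightest and the next probe set of Itga4 differed by 6.23 and 6.20 between embryonic fragments and rest of brain, and by -5.03 and -5.83 with age. A dimmer one (4.59 and -4.63) reached 4 on the 3 embryonic fragment arrays alone. It passed the filter only through them, so its directions were fixed and it is no check. Both probe sets of Itga6 were called in both comparisons (2.42 and 2.59, then 0.95 and 1.04). Both of Itga9 were called as well (3.59 and 2.66, then -2.64 and -1.92), the dimmer of them being marked as sharing probes with other transcripts. For Itgb1 the 3 probe sets were higher in embryonic fragments by 1.03 to 2.34, and with age 2 were called lower, while the other, whose probes are also marked as shared, had a difference of -0.44 ± 0.29 (adjusted p = 0.225).

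**Figure D3:**
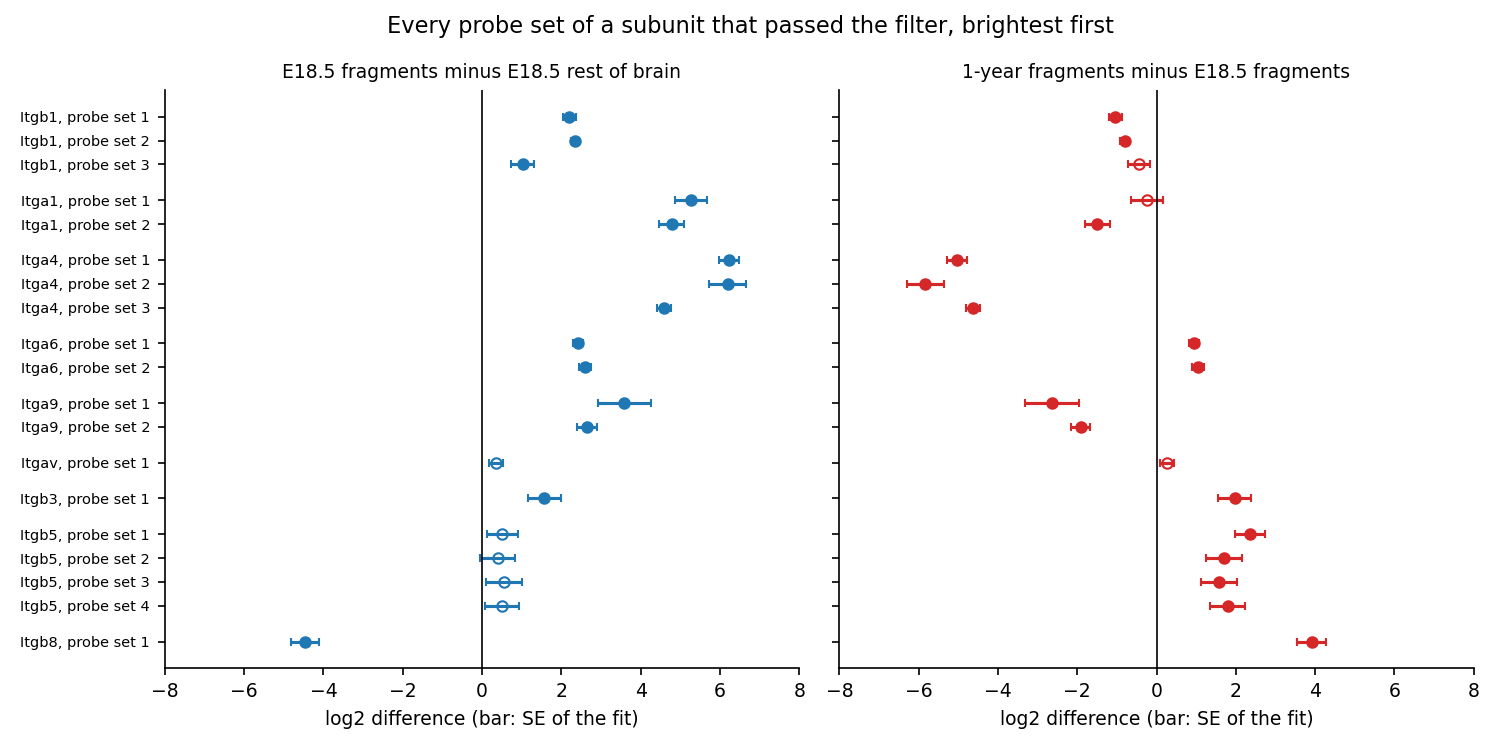
Log2 difference with the SE of the fit for each probe set of a member that passed the filter, brightest first; filled points were called at an adjusted p under 0.05 over all single-gene probe sets. The probe sets of a subunit lie on the same side of 0 in both comparisons, and those of Itga1 differ in whether the age difference was called.

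Because integrins work as pairs, the balance of an alpha and its beta subunit was followed as the difference of their log2 values within each array. Only changes of this balance between groups are given, since the levels of different probe sets cannot be set against each other. With 3 arrays against 3, the exact permutation test cannot give a 2-sided p under 0.1. Itga4 changed more than Itgb1, by 4.03 between embryonic fragments and rest of brain and by -3.99 between adult and embryonic fragments, and the arrays did not overlap (exact p = 0.1 for each). Itga6 and Itgb1 were higher in embryonic fragments by like amounts (change in balance 0.21, exact p = 0.2). With age the balance of Itga6 over Itgb1 shifted by 1.99 (exact p = 0.1), Itga6 being higher and Itgb1 lower. The balance of Itgav over Itgb8 was 4.82 higher in embryonic fragments than in rest of brain and changed by -3.66 between adult and embryonic fragments (exact p = 0.1 for each, no overlap). That of Itgav over Itgb5 changed by -2.10 with age (exact p = 0.1) and changed by -0.16 between embryonic fragments and rest of brain (exact p = 0.8). Over the 8 testable pairs and 3 comparisons, 24 such tests were made, and none can pass a threshold of 0.05 at this number of arrays, before or after adjustment.

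Other integrin subunits were mostly not measurable. Of 16 listed, 14 had a probe set of their own and 5 passed the filter. Between adult and embryonic fragments all 5 were higher, with a median of 2.75 against -0.02 over all genes, of which 27.4% were called higher. Itgam (3.31 ± 0.63, adjusted p = 0.002) and Itgb2 (3.19 ± 0.52, adjusted p = 7.98e-04) form a receptor of myeloid cells and, like the microglia and macrophage markers, were lowest on embryonic fragments replicate 1 within its group (3.17 and 7.06). Without that array the age difference was 2.64 for Itgam and 2.54 for Itgb2, and both were called (adjusted p = 0.00334 and 3.13e-04). The part of myeloid cells in these values was not tested. Itga8 (2.75 ± 0.31) and Itga7 (2.51 ± 0.17) are subunits of smooth muscle and other contractile cells. The mean of 7 smooth muscle markers was 10.2 to 10.7 in adult fragments against 7.24 to 7.56 in embryonic ones. Of the 7 markers 6 were called higher and 1 lower, where 27.4% and 29.7% of all tested genes were. Cnn1 and Lmod1 lay under 4 on every embryonic array and were tested only through the adult arrays, so they could only be higher. The part of smooth muscle in the levels of Itga7 and Itga8 was not tested. Between embryonic fragments and rest of brain 3 of the 5 were higher and 1 lower, where 28.9% and 37.2% of all tested genes were. Itgb2 was higher by 3.40 ± 0.52 (adjusted p = 3.58e-04), the laminin receptor subunit Itga3 by 0.54 ± 0.13 (adjusted p = 0.00631), and Itga7 was lower (-0.55 ± 0.17, adjusted p = 0.0196). Without embryonic fragments replicate 1 the excess of Itgb2 was 4.05, Itga7 was not called (-0.49, adjusted p = 0.062) and Itga8 was called higher (0.67, adjusted p = 0.0252, against 0.30 and 0.428 with all arrays).

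Among 24 tested matrix ligands of these receptors, 18 were higher in embryonic fragments than in rest of brain and 5 lower, with a median of 2.43. Of all tested genes 28.9% were called higher and 37.2% lower. Vwf, stored in endothelium and binds Itgb3 integrins, exceeded rest of brain by 10.16 ± 0.19 (most of its rest of brain arrays being under 4), and Fbln5, an elastic fibre protein with an RGD sequence, by 4.70 ± 0.29. Edil3 and Tnc, matrix proteins bound by Itgav and by Itga9 among others, were lower, at -6.06 ± 0.55 and -4.54 ± 0.15. With age the matrix ligands went down in 14 of 24 cases and up in 4, with a median of -1.18. Of all tested genes 29.7% were called lower there and 27.4% higher. Lama1 fell by 4.81 and Tnc was at least 12.6-fold lower, being under 4 in adult fragments. Vtn, vitronectin, a ligand of Itgav with Itgb3 or Itgb5, was higher by 1.10 ± 0.16 and Vwf by 1.03 ± 0.19.

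Ligands on cells and secreted ligands were higher in embryonic fragments than in rest of brain in 8 of 13 cases and lower in 5. Over all tested genes the shares were 28.9% and 37.2%. Icam1, bound by Itgb2 integrins, and Pecam1 were at least 134-fold and 39.6-fold higher, L1cam, an adhesion molecule of axons, fell by 5.23 and the secreted protein Ccn3 fell by 2.96. With age 9 of 13 were higher and 1 lower, beside 27.4% and 29.7% of all tested genes. Vcam1, the cell surface ligand of Itga4, was higher in adult fragments by 3.96 ± 0.25 (adjusted p = 3.13e-06), and Ccn3 by 3.78 ± 0.34. Madcam1, a further ligand of Itga4 integrins, was at least 7.30-fold lower (adjusted p = 1.76e-07) and was the 1 gene called lower. It reached 4 on the embryonic fragment arrays alone and was tested only through them. It could therefore only be lower with age, and only higher in embryonic fragments than in rest of brain. Against rest of brain, Vcam1 was lower in embryonic fragments (-2.28 ± 0.25, adjusted p = 4.1e-05).

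Of 38 tested genes of integrin activation and the adhesion complex, 30 were higher in embryonic fragments than in rest of brain and 1 was lower. Their median was 1.85, and over all tested genes 28.9% were higher and 37.2% lower. Rasip1, an endothelial partner of the GTPase Rap1, was at least 73.1-fold and the adaptor Tns2 at least 26.5-fold higher. With age 12 were higher and 13 lower, with a median of 0.04, where 27.4% and 29.7% of all tested genes were. Lims2, an adaptor next to integrin-linked kinase, was higher by 2.90 ± 0.25, and Ptk2b, a kinase of the focal adhesion family, was at least 5.63-fold higher. The kinase Src fell by 2.57 and Dab2, an adaptor that binds the tails of beta subunits, fell by 2.68.

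The TGF-beta list held genes of latent TGF-beta, which integrins with Itgav release, and of its receptors and Smad signalling. Of 14 tested, 8 were higher and 2 lower in embryonic fragments against rest of brain (28.9% and 37.2% of all tested genes). With age 9 were higher and 4 lower (27.4% and 29.7% of all tested genes). Tgfb1 was at least 12.3-fold higher in embryonic fragments than in rest of brain and fell by 2.88 with age. Tgfb3 had the opposite order, lower in embryonic fragments (-1.95 ± 0.19) and higher by 3.54 ± 0.19 in adult ones, as Itgb8 was. Nrros, which holds latent TGF-beta on myeloid cells, was higher by 5.83 ± 0.37 in embryonic fragments and fell by 3.17 with age. Ltbp3, a binding protein of latent TGF-beta, fell by 1.67 in embryonic fragments, and Ltbp4 was higher by 2.37 ± 0.19 in adult than in embryonic ones.

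**Figure D4:**
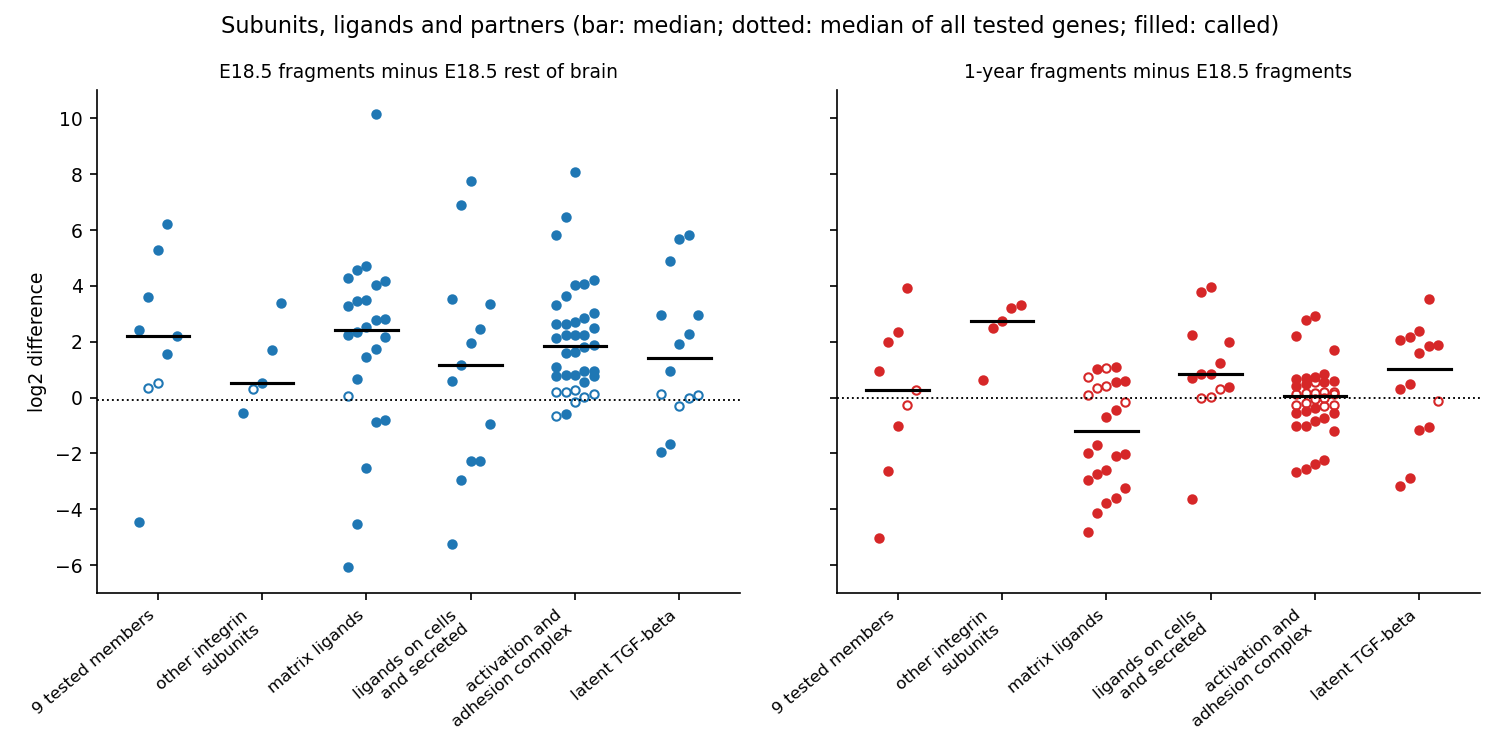
Log2 difference of each tested gene by list in the comparison of embryonic fragments with rest of brain (left) and of adult with embryonic fragments (right); filled points were called, bars are the medians of the lists and the dotted line is the median of all tested genes. The matrix ligands have a median of 2.43 on the left and of -1.18 on the right, and the adhesion complex one of 1.85 and of 0.04.

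Adult fragments and embryonic rest of brain differ in tissue, age, strain and RNA kit at the same time, so this comparison serves as a description. Of all tested genes 33.1% were called higher and 42.9% lower in it. Among the members above background in both groups, Itga1 (5.03 ± 0.40), Itga6 (3.37 ± 0.13) and Itgb5 (2.87 ± 0.38) had the largest differences, all higher in adult fragments. Itgb3, at background in rest of brain, has only the lower bound given above. In the list of matrix ligands 14 of 24 were higher, led by Vwf (11.19 ± 0.19) and Fbln5 (5.04 ± 0.29), and 8 lower, led by Tnc (at least 294-fold) and Edil3 (-5.34 ± 0.55). Cell surface and secreted ligands were higher in 8 of 13 cases, with Icam1 and Pecam1 at least 166-fold and 64.7-fold higher, and lower in 2, with L1cam at -3.23 ± 0.32. In the adhesion complex 32 of 38 were higher, Tns2 and Rasip1 by at least 42.5-fold and 31.5-fold, and 2 lower, among them Src (-2.30 ± 0.22). Of the TGF-beta genes 12 of 14 were higher, with Ltbp4 at 5.34 ± 0.19 and Tgfbr2 at 5.18 ± 0.10, and 1 was lower, Smad2 at -1.46 ± 0.13. The other 5 subunits were all higher, with Itgb2 at 6.59 ± 0.52 and Itgam at least 14.1-fold.

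For each member the 2 tested genes with the most similar course over the 9 arrays were found, by the root mean square difference after each gene was centred on its own mean. For Itgb1 these were Gnb4 and Tpm4, at 0.08 and 0.16 log2 units. Itga6 was closest to Tpd52 and Lnx2 (0.14 each), and Itgav to Twistnb and Krt42 (0.10 and 0.13). Itga1 was closest to Card6 and Dock6 (0.31 and 0.36), and Itga4 to Tnfrsf11b and Gpr31b (0.45 and 0.49). Itga9 was closest to Ccr1 and Ebi3 (0.32 and 0.34), Itgb3 to Plekha2 and Arhgef3 (0.31 and 0.34), Itgb5 to Il17ra and Daglb (0.19 and 0.20), and Itgb8 to Dzank1 and Rragd (0.24 and 0.30). None of the 18 genes was itself a member, and the arrays share their 3 groups, so the likeness is mostly that of the group means.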

How the data were processed

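The authors deposited log2 values, 1 per probe set and array for 9 arrays. The submitters' processing notes name GCRMA 2.6.0 and R 2.4.1. Any other step is not given in the sources used here. That the scale is log2 was read from the range of the values. GCRMA normalizes by quantiles, so a change in total RNA per cell cannot be seen. No scanner file was used here, so slide or scan date could not enter as a block. No 2 arrays were identical (0 pairs), and 0 per-sample columns were left unused. The number of arrays limits the precision.

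Of 45101 probe sets, 34958 name 1 gene, 932 several and 9211 none. Symbols were looked up by Entrez identifier in a RefSeq table of GRCm38.p6 (34754 found, 0 changed). Genes with at least 4 on at least 3 of 9 arrays were tested (12009) by limma 3.58.1 under R 4.3.3 (1 lmFit and eBayes fit of all 9 arrays, 2-sided, 8.43 degrees of freedom), with Benjamini-Hochberg adjustment over them. An "at least" fold sets a group under 4 on all its arrays to 4. Deviations from the group means of same-numbered embryonic fragments and rest of brain correlated in every pair (Pearson's r = 0.19, 0.20 and 0.22 across 12009 genes). The numbers may therefore pair the samples, which the titles do not state. The main fit did not use this pairing, and a replicate block is given as an alternative. For rest of brain replicate 3, the labels disagree on the embryonic day, and the title was followed. On simulated data for embryonic fragments against rest of brain, the fit recovered 67% of 100 genes changed by 1 log2 unit and 88% of 100 changed by 2. Of the genes it called there, 6.06% were false. Titles call the replicates biological but name no animals or litters, so p-values measure the spread between these samples.

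Members and lists were chosen with earlier results of these data known. Named genes were all members, the 2 called genes per list, comparison and direction with the largest differences (higher group averaging 6 or more), and the 2 genes most like each member. Other genes named were chosen after their values were seen. The alternatives were other normalizations, filters, probe sets and variance models, a replicate block and leaving out each array.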

Additional observations from a re-analysis of the deposited data

How the results depend on the processing

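With 22 alternative settings, single members had 561 alternative values, of which 546 kept direction and side of the threshold, 5 lost a call, 10 gained one and 0 reversed a call. With the mean of all probe sets of a gene, 4 members were called between adult fragments and rest of brain of 8 tested instead of 7 of 9. Itgb3 no longer passed the filter, and Itga4 and Itgav lost their calls (adjusted p = 0.238 and 0.186). Leaving out 1 array gave 7 to 8 called members between embryonic fragments and rest of brain, 7 to 7 between the ages, and 7 to 8 between adult fragments and rest of brain. Over all genes it gave 6652 to 8328, 6052 to 6806 and 7954 to 9122 calls. The added members were Itgb5 without embryonic fragments replicate 1 (1.04), where the cause was not tested, and Itgav and Itgb8. Itgav was added without adult fragments replicate 2 or 3 (adjusted p = 0.0427 and 0.0469, range without 1 array 0.0427 to 0.245). Itgb8 was added between adult fragments and rest of brain without embryonic fragments replicate 2 (adjusted p = 0.0488, range 0.0488 to 0.427). For Itgav and Itgb8 the array left out was not in the comparison, so the differences stayed at 0.36 and -0.55. The SE of the fit went from 0.17 to 0.13 and 0.14 for Itgav and from 0.36 to 0.22 for Itgb8.

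For the lists, leaving out embryonic fragments replicate 1 was chosen after seeing the data. Between the ages it gave 5 called microglia and macrophage markers instead of 3 and 2 platelet markers instead of 1, and left Madcam1 untested. Itga7 and Itga8 kept their calls between the ages. Their calls changed between embryonic fragments and rest of brain (adjusted p = 0.062 and 0.0252).

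The replicate block on the embryonic arrays, paired by number, gave 8333 called genes against 7939 and changed the call of Itgav (adjusted p = 0.0464) and Itgb3 (adjusted p = 0.0513) among the tested members. Array weights gave calls to Itgav (adjusted p = 0.0194) and Itgb5 (adjusted p = 0.0349) between embryonic fragments and rest of brain. Cyclic loess moved the median of all genes between adult fragments and rest of brain from -0.17 to -0.03, and changed no call of a member. Of 369 alternative values of subunit balance, 18 moved by more than the larger SD of the groups, mostly with other probe sets. Members near a value of 4 (Itga9, Itgb3) are limited by background, and Itga5 could not be measured.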
